A study of Mus musculus with 18 samples.

Results

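Of 18 Affymetrix expression arrays, 3 stood apart from the rest: p53ER vehicle replicate 1, uninfected 0 h replicate 2 and p53ER 0 h replicate 3. They belong to 3 different groups, and they were picked because they lay far out on the first principal component of these same signals. Values of the 3 arrays are given in that order below, each beside the other 2 arrays of its own group (its group mates) or beside the other 15 arrays. Because the arrays were chosen from the signals, the differences between them and the others, in genes and in control probe sets, are described here and not tested.

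All arrays carried total RNA from TKO, a mouse cell line that the labels describe as having dysfunctional telomeres. Part of the cells expressed p53ER, in which p53, a tumour suppressor, is joined to the estrogen receptor and stays inactive until it is given 4-hydroxytamoxifen (4-OHT), while the remaining cells were uninfected. The 6 groups of 3 arrays were p53ER cells after 4 h with 100 nM 4-OHT, p53ER cells after 4 h with vehicle, p53ER cells at 0 h, and uninfected cells under the same 3 conditions. The 4 h treatment was meant to catch genes that p53 may regulate directly. All groups share the TKO background. No group of cells infected without the fusion is named, and whether replicates come from separate cultures is not given in the labels. The p-values therefore measure only how far these arrays scatter, which may be technical scatter. The labels used here give the 3 arrays the same protocols as the other 15, and nothing but group and replicate number sets them apart there.

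A signal on this kind of array comes from RNA copied from its poly(A) tail, labelled and hybridised to short probes that mostly lie near the 3′ end of a transcript. Transcripts differ widely in where they reside, from messenger RNAs in the cytoplasm to noncoding RNAs such as Malat1, which stays in nuclear speckles, and in length and stability. The SMC proteins, among the transcripts described here, form the ring-shaped cohesin, condensin and SMC5/6 complexes that hold together, compact and repair chromosomes.

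The MAS5 signals of each array were scaled to a common 2% trimmed mean of 82.7, and log2(signal + 4.13) was used for differences and folds, so folds of dim transcripts are understated. Each gene was read by its brightest probe set, and 10917 genes in the upper 60% by mean level were compared. The first component held 23.9% of the variance. It placed uninfected 0 h replicate 2 at 56.5, p53ER vehicle replicate 1 at 53.3 and p53ER 0 h replicate 3 at 27.3, against 3.77 for uninfected 0 h replicate 3 and -4.27 to -13.4 for the other 14 arrays. p53ER 0 h replicate 3 thus lay between the other outlying pair and the rest. The trimmed mean before scaling was 123, 58.1 and 64.9 on the 3 arrays, within the 47.5 to 148 of the other 15.

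The departure that the 3 arrays shared ran mostly downward. A gene was counted as lower when the mean of its 3 differences from the group mates was at least 2-fold and each of the 3 arrays lay below both of its mates, and as higher by the same rule turned round. By this rule 674 genes were lower, 6.17% of those compared, and 9 were higher, 0.0824%. The median difference of the 674 was -1.84, -1.69 and -0.97 on the log2 scale on the 3 arrays, and 115 of them were at least 4-fold lower on average. In 503 of the 674 genes all 3 arrays lay below all 15 others, where 7.4% of all genes compared did so and 2.37% lay above all 15. On the other 15 arrays the median of the same genes, against their mean over those 15, ran from -0.22 to +0.12, and the lowest was uninfected 0 h replicate 3. Over all 10917 genes the median difference was +0.05, +0.08 and +0.04.

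Taok1, which encodes a Ste20-family kinase of the stress-activated kinase pathways, had the largest mean difference of all genes. Its scaled signal was 1.48, 5.12 and 226 on the 3 arrays, against 301 and 529, 391 and 352, and 353 and 338 on their mates. The 15 other arrays ran from 268 to 529 with a median of 353, so all 3 arrays lay below all 15. The difference was 71.9-fold and 40.5-fold on the first pair and 1.52-fold on p53ER 0 h replicate 3, a mean log2 difference of -4.04 ± 3.003 (SD, n = 3). Because the signals of 1.48 and 5.12 are close to the offset, the size depends on it, at -4.95 with no offset and -3.09 with a larger one.

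Trpm7, a cation channel joined to a kinase and important for magnesium uptake, followed the same pattern. Its signal was 3.56, 1.85 and 67.3 on the 3 arrays, against 130 and 141, 124 and 115, and 186 and 153 on their mates. The other 15 arrays ran from 97.9 to 186 with a median of 141 and did not overlap with the 3. The mean log2 difference was -3.27 ± 1.73 (SD, n = 3).

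Smc2, a core subunit of condensin, had a signal of 22.0, 31.3 and 77.0 on the 3 arrays, against 334 and 186, 352 and 208, and 335 and 345 on their mates. The range over the other 15 was 143 to 421 with a median of 324. All 3 arrays were well below it, with a mean log2 difference of -2.77 ± 0.62 (SD, n = 3), so here the third array was closer to the other outlying ones than for Taok1.

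Usp9x, a large deubiquitinating enzyme, stood at 19.3, 9.97 and 83.6 on the 3 arrays, against 177 and 206, 175 and 191, and 176 and 184 on their mates. On the other 15 arrays it kept to a narrow range of 133 to 206 with a median of 176. The mean log2 difference was -2.62 ± 1.38 (SD, n = 3), and on this brightest probe set the groups of 3 and 15 arrays did not overlap.

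Malat1, the nuclear noncoding RNA, was low on the first pair. Its signal was 243, 271 and 2976 on the 3 arrays, against 3808 and 9550, 4954 and 1215, and 3737 and 3999 on their mates. The first pair lay far below the 1215 to 9550 of the other 15 arrays (median 3808), while p53ER 0 h replicate 3 lay inside that range. The mean log2 difference of -2.72 ± 2.15 (SD, n = 3) therefore rests on the first pair, at -4.61 and -3.16, with -0.38 on the third. The probe set read here, 1438403_s_at, is of a type that can detect more than a single transcript.

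**Figure D1:**
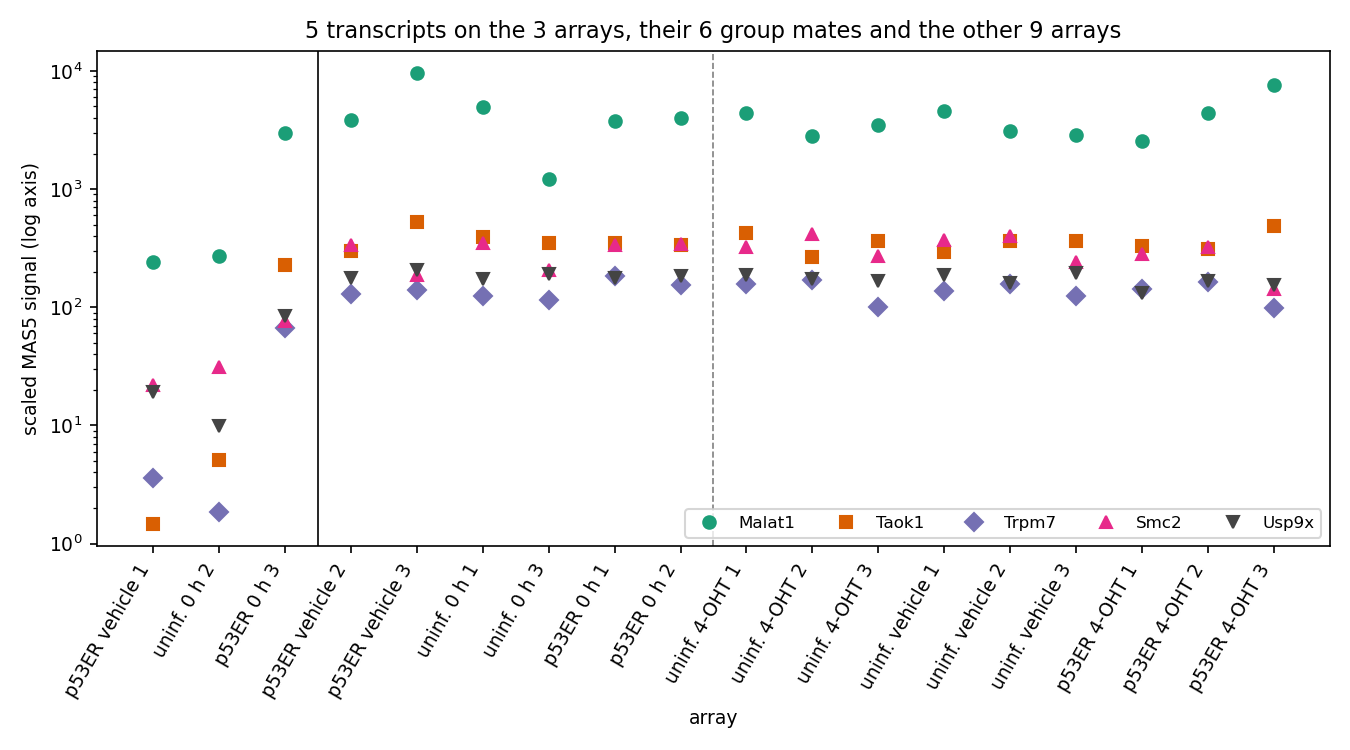
Scaled MAS5 signal on a log axis for Malat1, Taok1, Trpm7, Smc2 and Usp9x on each of the 18 arrays, 1 point per array, with the 3 outlying arrays at the left, their 6 group mates in the middle and the other 9 arrays at the right. Taok1 lies at 1.48 and 5.12 on the first pair and at 268 to 529 on the 15 others, and Malat1 on p53ER 0 h replicate 3 (2976) lies within the range of the 15.

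Other probe sets of the same transcripts gave the same direction where they had signal. For Taok1, 5 of 7 probe sets were at least 2-fold lower by the mean of the 3 arrays. Among them 1426358_at stood at 10.6, 19.4 and 67.5 on the 3 arrays against 95.9 to 212 on the other 15. The 2 probe sets left had medians of 6.96 and 1.42 on the 15 arrays, near the floor. The brightest Taok1 probe set and the next ones differed in size on p53ER 0 h replicate 3. The set 1424658_at stood at 16.1 there and at 7.46 and 7.40 on the first pair, against 32.5 to 119 on the other 15, a mean difference of -2.22 ± 0.23 (SD, n = 3).

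By the mean of the 3 arrays, 3 of 4 probe sets were at least 2-fold lower for Trpm7. For Smc2 it was 4 of 5, for Usp9x 6 of 7 and for Malat1 6 of 7. The exception for Malat1, 1436202_at, had a mean log2 difference of -0.76, and the exceptions for the other 3 genes had medians of 0.84 to 13.9 on the 15 arrays. On p53ER 0 h replicate 3 some of the lower probe sets lay within the range of the 15. There Usp9x 1428193_at stood at 86.5 against 81.4 to 144 and 1450039_at at 117 against 111 to 228. Malat1 1418188_a_at stood at 875 against 557 to 2051. Usp9x 1428194_at lay below the range, at 83.3 against 122 to 186. Over all genes, 931 further probe sets belonged to 469 of the 674 lower genes. Of these, 61.3% differed by at least 2-fold downward, with a median of -1.23, and 0 were at least 2-fold higher, against 4.56% of 9127 further probe sets of the remaining genes at least 2-fold lower.

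After Taok1 and Trpm7 the order by size was Mki67, Ranbp2, Tab3, Pola1 and Zhx1. Mki67, the proliferation antigen that coats mitotic chromosomes, had a signal of 34.2, 60.6 and 156 on the 3 arrays, against 784 and 256, 682 and 478, and 796 and 672 on their mates. Ranbp2, a giant nucleoporin, stood at 7.60, 11.4 and 84.4 against 173 and 164, 196 and 124, and 217 and 191. Pola1, the catalytic subunit of the polymerase that primes replication, stood at 11.8, 1.14 and 47.3 against 132 and 79.3, 110 and 106, and 116 and 113. In each of these genes all 3 arrays lay below all 15 others.

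Atrx, a chromatin remodeller at telomeres and heterochromatin, had a signal of 11.6, 8.97 and 65.0 on the 3 arrays against 124 and 193, 175 and 139, and 170 and 153 on their mates. Smc4, the partner of Smc2 in condensin, stood at 51.8, 46.1 and 154 against 389 and 416, 549 and 335, and 681 and 762. Mga, a transcription factor that pairs with Max, stood at 14.7, 2.14 and 47.0 against 85.4 and 114, 107 and 95.2, and 116 and 100.1. All 3 genes were below the other 15 arrays throughout.

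The rest of the 20 largest differences ran from -2.79 to -2.52 as means over the 3 arrays. They were Tab3, an adaptor of the TAK1 kinase, the homeobox repressor Zhx1, Ube2v2 and Dcun1d1, which act with ubiquitin and NEDD8 conjugating enzymes, the lipid kinase Pik3c2a, the exocyst subunit Exoc5, the ubiquitin ligase scaffold Cul4b, the actin-binding Ccdc88a (girdin), and Ogn, a secreted proteoglycan. Zhx1, Cul4b and Ogn overlapped with the other 15 arrays through p53ER 0 h replicate 3. Its Cul4b signal was 174, against 167 to 314 on the 15. The Dcun1d1 probe set, like that of Malat1, is of a type that can detect several transcripts.

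The 9 genes counted as higher were dim and none was clear of the other 15 arrays. Smpd2, a neutral sphingomyelinase, had the largest difference at +1.30 ± 0.45 (SD, n = 3). Its signal was 85.0, 74.0 and 77.4 on the 3 arrays against 53.2 and 16.6, 34.6 and 46.5, and 17.7 and 23.8 on their mates, within the 11.2 to 92.5 of the other 15. The other 8 were Mm2pr, Acy1, Mettl27, Psd, C920021L13Rik, Gm17508, Zfp691 and Dcaf4, with mean log2 differences of +1.01 to +1.26. All 9 were among the dimmest 2730 of the genes compared, ranked by level in 4 equal bins.

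At the limit of the rule, Slc2a13 and Zfp131 lay just inside it with mean log2 differences of -1.0005 and -1.0002. Abcb1a and Zbtb1 lay just outside, at -0.9998 and -0.9997. Among higher genes Zfp691 (+1.09) and Dcaf4 (+1.01) were just inside, and Trappc6a (+0.96) and Mfsd3 (+0.95) just outside.

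The 3 arrays did not agree equally. Taken by itself, p53ER vehicle replicate 1 had 1016 genes at least 2-fold below its mates (9.31% of those compared), uninfected 0 h replicate 2 had 988 (9.05%) and p53ER 0 h replicate 3 had 768 (7.03%). At least 2-fold above the mates were 312, 203 and 376 genes. The first pair shared 648 genes, which is 63.8% of the 1016 and 65.6% of the 988. Of these 648, 254 (39.2%) were also at least 2-fold lower on p53ER 0 h replicate 3.

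Conversely, 83.6% of the 304 genes lower on both p53ER arrays were lower on uninfected 0 h replicate 2, and 82.7% of the 307 shared by uninfected 0 h replicate 2 and p53ER 0 h replicate 3 were lower on p53ER vehicle replicate 1. Across the 10917 genes the differences of the first pair correlated at r = 0.63. The r was 0.19 between p53ER vehicle replicate 1 and p53ER 0 h replicate 3 and 0.30 between uninfected 0 h replicate 2 and p53ER 0 h replicate 3. These differences share no array, and genes are not independent replicates. However, both arrays of the first pair have a replicate 3 array among their mates, while p53ER 0 h replicate 3 is set against replicates 1 and 2, so any shift of replicate 3 enters the first pair and the third array with opposite signs. With the replicate number as a block, r was 0.61 for the first pair, and 0.31 and 0.37 for each of them with p53ER 0 h replicate 3, differences that share the fitted replicate effect.

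**Figure D2:**
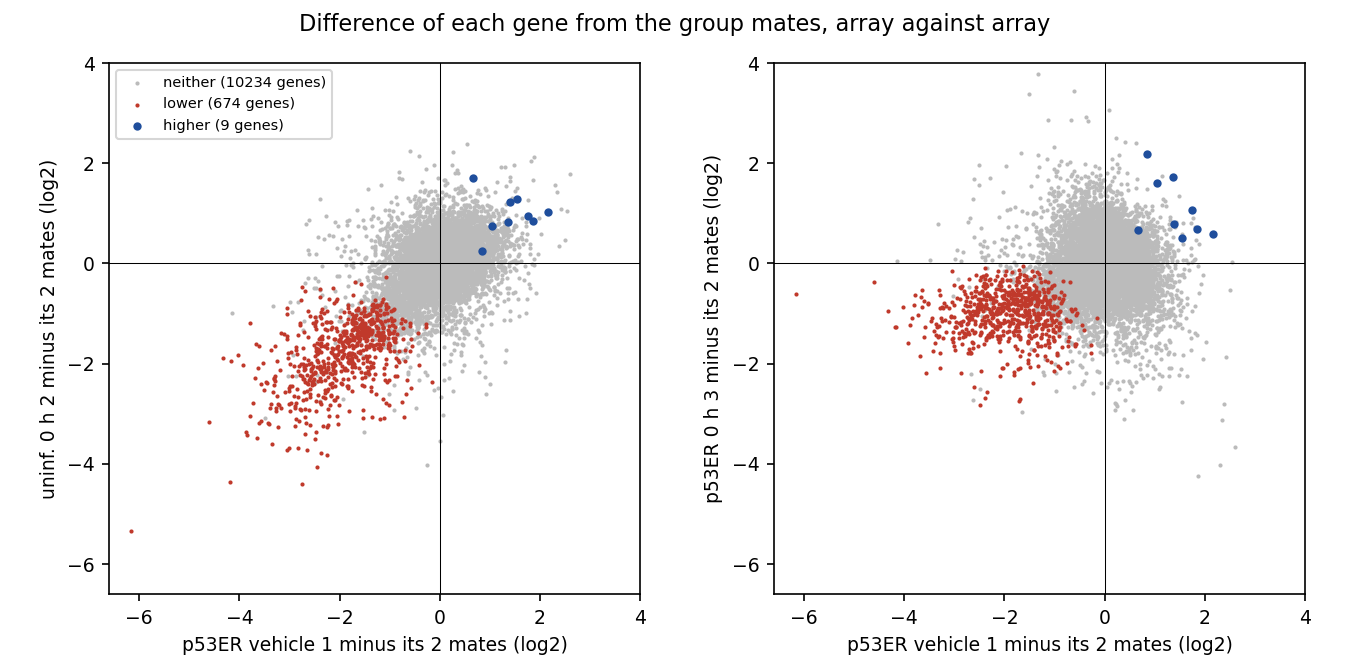
Log2 difference of each of 10917 genes from the group mates, with p53ER vehicle replicate 1 on the x axes and uninfected 0 h replicate 2 (left) or p53ER 0 h replicate 3 (right) on the y axes. Red marks the 674 genes counted as lower, blue the 9 counted as higher and grey the rest. The left cloud stretches along the diagonal (r = 0.63) and the right one does so much less (r = 0.19).

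Each array also had genes that were lower on it with neither of the others under -0.5, and here the third array differed most from the rest. There were 150 such genes on p53ER vehicle replicate 1 (14.8% of its 1016), 134 on uninfected 0 h replicate 2 (13.6%) and 301 on p53ER 0 h replicate 3 (39.2%). As a set, the 301 were also low on other arrays numbered 3. On the replicate 3 arrays of the other 5 groups their median difference from replicates 1 and 2, the outlying arrays left out, ran from -0.87 to -0.64, against +0.02 to +0.28 for the 150 and +0.02 to +0.13 for the 134. With the replicate number as a block, 79 of the 301 (26.2%) were still at least 2-fold lower, against 105 of the 150 (70.0%) and 94 of the 134 (70.1%). The 301 thus held both genes that followed the replicate number and genes that did not.

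The following genes were chosen after their values were seen, from the largest differences of each set. Aldh1a1, a retinaldehyde dehydrogenase, was at 4.84 on p53ER 0 h replicate 3, against 118 and 101 on its mates, and the other 15 arrays ran from 1.32 to 310. It was at 144 on p53ER vehicle replicate 1 and 153 on uninfected 0 h replicate 2. With the replicate block its difference on p53ER 0 h replicate 3 was +1.08 in place of -3.66. By contrast, Uroc1, which encodes urocanate hydratase, was at 2.42 there against 54.2 and 38.8 on its mates, and its difference of -2.93 was the same with the block. Zhx3, a relative of Zhx1, differed by -2.93 without the block and by -2.40 with it, and Tmem217 by -2.85 and -2.56.

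On uninfected 0 h replicate 2, Nxf1, the main export receptor for messenger RNA, was at 27.5 against 170 and 187 on its mates. It was at 156 on p53ER vehicle replicate 1 and 225 on p53ER 0 h replicate 3, and the other 15 arrays ran from 146 to 234. The interferon-induced genes Ifi27l2a and Oasl2 were at 2.56 and 15.2 on uninfected 0 h replicate 2. Their mates had 92.1 and 118 for Ifi27l2a and 142 and 90.5 for Oasl2, and the lowest values among the other 15 arrays were 13.8 and 12.9. On p53ER vehicle replicate 1 the cytokine gene Lif stood at 140 against 295 and 2201 on its mates, within the 60.2 to 2332 of the other 15.

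The lists below were put together with earlier results of these data known, so their counts describe and do not support. The counts can be read against 6.17% of all genes counted as lower.

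Genes of the SMC complexes were lower as a near-complete set. Of 19 measured, 15 were counted as lower (78.9%), with a median mean difference of -1.49 and medians of -1.79, -1.38 and -0.97 on the 3 arrays. They included the condensin cores Smc2 and Smc4, the condensin II subunit Ncapg2 (-2.51 ± 0.66, SD, n = 3), the cohesin loader Nipbl (-2.51 ± 1.37), the cohesin cores Smc1a (-1.20) and Smc3 (-1.80), the cohesin subunits Stag1 and Stag2, and Smc5 and Smc6. The 4 that were not counted were the cohesin cleavage subunit Rad21 (-0.15) and the condensin subunits Ncapd2 (+0.12), Ncaph (+0.25) and Ncapd3 (+0.26). Subunits of the same complex thus lay on both sides: Ncaph was at +0.90, +0.18 and -0.34 on the 3 arrays, and Smc2 at -3.28, -2.95 and -2.08.

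The list of genes for very large proteins also held many lower members, 24 of 46 (52.2%), with a median of -1.12. Among them were Rif1, of replication timing and telomeres (-2.49), Chd9, a chromatin remodeller (-2.32), the early endosome tether Eea1 (-2.24), the cytoskeletal linkers Macf1 (-1.63), Dst (-1.46) and Utrn (-1.503), the DNA-dependent protein kinase Prkdc (-1.497) and Brca2 (-1.22). Very large proteins that were not lower included Ubr4 (+0.41), Plec (+0.28), Kmt2d (+0.26), Dync1h1 (+0.26), Trrap (+0.24), Mtor (+0.16) and Fn1 (+0.02). Transcript lengths and the positions of probes in transcripts were not used here, so length itself was not tested.

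Zinc finger genes were lower in 14 of 27 cases (51.9%), with a median of -1.01. Zfp644 stood at 21.9, 14.9 and 53.1 on the 3 arrays, against 118 to 215 on the other 15, and Zfp101, Zfp638 and Zfp148 had mean differences of -1.81, -1.76 and -1.70. Of the ubiquitin enzymes 10 of 31 (32.3%) were lower, with a median of -0.71. Besides Usp9x and Cul4b they included Ube3a, the ligase lost in Angelman syndrome (-2.09), and the deubiquitinating enzyme Usp34 (-1.82).

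Regulators of splicing were lower in 9 of 36 cases (25%), with a median of -0.52. They were led by the kinase Prpf4b (29.8, 17.8 and 101 on the 3 arrays, against 101 to 177 on the other 15) and the SR protein kinase Clk1 (-1.73), Luc7l3 (-1.73) and Rbm25 (-1.65). The SR protein genes Srsf2 (+0.31) and Srsf6 (+0.18) and the kinase Clk2 (+0.05) were not lower.

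Among noncoding RNAs most mean differences were below 0, in 13 genes against 2 above, with a mean over the list of -0.61. Of 15 noncoding RNAs known from the nucleus or grouped with them, 3 were counted as lower (20%), with a median of -0.27, which was -0.69 without p53ER vehicle replicate 1. Tug1 stood at 189, 136 and 116 on the 3 arrays, against 421 and 354, 424 and 306, and 539 and 508 on their mates, and below all 15 others, which ran from 231 to 559. Kcnq1ot1, an imprinted antisense RNA, differed by -1.33 ± 0.34 (SD, n = 3).

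Neat1, the scaffold of nuclear paraspeckles, differed by -0.63, -1.40 and -0.47 and Meg3 by -0.10, -0.63 and -1.58. Norad, which is cytoplasmic for the most part, had a mean of -0.17, and Jpx (+0.41) and Mirg (+0.53) were not lower. By gene type in the annotation, 1.34% of the 674 lower genes were long noncoding, against 2.25% of all genes compared.

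Kinases of the Taok1 family and channels of the Trpm7 family did not follow these genes as families. Of 18 measured, 4 were lower (22.2%): Taok1, Trpm7, Slk (-2.10) and Map4k5 (-1.14), with a median of +0.10 over the list. The close relatives Taok2 and Taok3 stood at +0.25 and +0.08 and the channel Trpm4 at +0.15.

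Mitotic genes split. Of 30 measured, 8 were lower (26.7%) with a median of 0.00 over the list, and on the first pair most of the others were higher than on the mates. Lower were Mki67, the kinesins Kif20b (-2.45 ± 0.29, SD, n = 3) and Kif11 (-1.29), the centromere proteins Cenpe (-2.19) and Cenpf (-1.85), the checkpoint kinases Bub1 (-2.10) and Ttk (-1.43), and topoisomerase Top2a (-1.45). Kif20b was at 12.3, 11.7 and 27.0 on the 3 arrays, against 122 and 61.3, 121 and 84.9, and 140 and 129 on their mates.

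The other 22 mitotic genes had medians of +0.78, +0.40 and -0.94 on the 3 arrays. Plk1, the kinase that drives entry into mitosis, was at +1.24, +1.04 and -1.01, the kinesin Kif20a at +1.505, +0.76 and -0.93, and Cdc20, the activator of the anaphase-promoting complex, at +1.37, +0.68 and -1.001. With the replicate block the median of the 22 was +0.67, +0.12 and -0.41. The whole list had a median of -1.01 on p53ER 0 h replicate 3, and -0.49 with the block. On the other replicate 3 arrays, against replicates 1 and 2 with the outlying arrays left out, it had medians of -0.96 and -1.19 in p53ER cells with 4-OHT and with vehicle, and of -0.20, -0.18 and -0.02 in uninfected cells with 4-OHT, with vehicle and at 0 h. The low values were thus found on the replicate 3 arrays of p53ER cells, and the difference between cell types was not tested. In bulk RNA, fewer cells in mitosis and less of these transcripts per cell cannot be told apart.

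Abundant housekeeping messages were not lower. Of 32 cytosolic ribosomal protein genes 0 were counted as lower, with a median of +0.23, and of 45 genes of the respiratory chain 0, with a median of +0.30. Rpl11 was at 3514, 3012 and 3415 on the 3 arrays, against 2264 to 2979 on the other 15, and Sdhd, a subunit of succinate dehydrogenase, at 788, 508 and 684 against 319 to 599. For the ribosomal proteins the arrays differed in sign, at -0.29, +0.35 and +0.52, but not with the replicate block, at +0.05, +0.29 and +0.29. Of 31 proteasome subunits 1 was lower, the ATPase Psmc6, at 230, 365 and 536 against 826 to 1232 on the other 15, while the list had a median of +0.26.

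The secretory pathway had 5 of 27 lower (18.5%), with a median of -0.11. Of these Trip11 (-2.08), Golgb1 (-1.92) and Golga4 (-1.36) are large Golgi tethers, Sec62 (-1.63) is part of the translocon, and Hsp90b1, the chaperone of the endoplasmic reticulum, stood at 390, 432 and 526 against 929 to 1559 on the other 15. Its fellow chaperone Hspa5 differed by -0.09.

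Immediate early genes, loading references such as Gapdh and Actb, and markers of mesenchymal, epithelial, blood and endothelial cells had 0 genes lower, of 29, 13, 8, 3, 5 and 1 measured. Summed mesenchymal signal, from genes such as Col1a1, Vim and Fn1, was 41152 to 64678 on the 3 arrays and 39405 to 58340 on the other 15. Over 7 epithelial, 6 blood and 4 endothelial markers on the array, dim ones included, the sums of epithelial (219 to 257 against 172 to 306), blood (285 to 413 against 277 to 385) and endothelial markers (57.0 to 137 against 52.4 to 140) were low throughout, and no marker stood at 0.

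**Figure D3:**
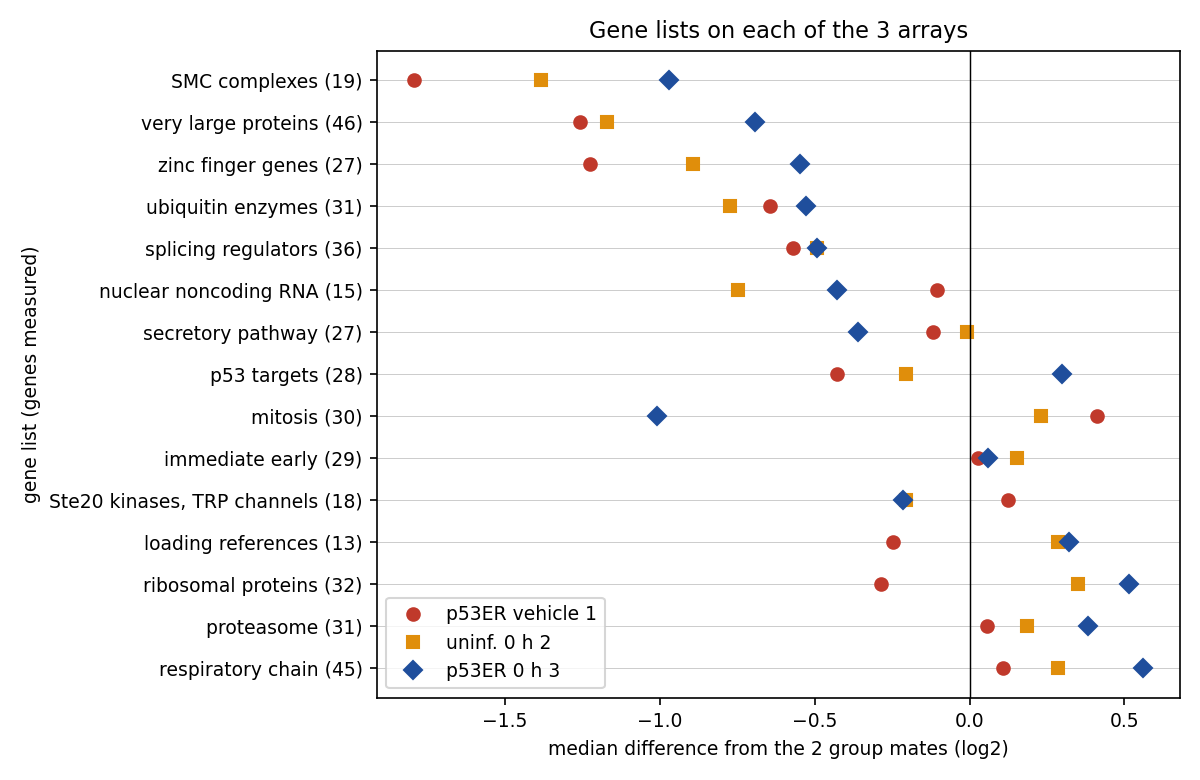
Median log2 difference from the 2 group mates on each of the 3 arrays, for 15 gene lists with the number of genes measured in brackets. SMC complexes lie at -1.79, -1.38 and -0.97, while respiratory chain genes lie above 0 on all 3 arrays and mitotic genes are above 0 on the first pair and at -1.01 on p53ER 0 h replicate 3.

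Other measured properties set the lower genes apart less. They were spread over all levels, with 3.44%, 7.70%, 7.81% and 5.75% of the genes counted as lower in 4 equal bins from dimmest to brightest. The GC content of the promoter, available for 81.9% of the lower genes and 81.1% of all, had a median of 63.7% in the lower genes and 61.3% in all. An accession that begins with NM_, NR_, XM_, BC, AK or AF stood behind 32.8% of the lower genes' probe sets and 47.6% of all. Probe sets with other accessions, which may also be cDNA, were thus more common among the lower genes.

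The control probe sets read the 5′ end, middle and 3′ end of 4 transcripts. They were not kept out of the genes compared, and the 3′ actin control was the probe set that read its gene there. The actin ratio of 3′ to 5′ was 1.10, 1.08 and 1.08 on the 3 arrays and 1.00 to 1.22 on the other 15, and the Gapdh ratio was 0.782, 0.822 and 0.949 against 0.797 to 0.950. For the transferrin receptor the ratio was 2.54, 2.999 and 2.20, against 2.27 to 4.31. The 3′ excess was on average smaller on the 3 arrays, by -0.39 on the log2 scale and by -0.30 with no offset. The ranges of the ratio with the offset overlapped. For the actin 3′ to middle ratio the mean log2 difference was -0.05. The geometric mean of the 18S probe sets, with the offset, stood at 98.8, 91.6 and 141 on the 3 arrays. The other 15 ran from 35.7 to 199.

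In level, the transferrin receptor controls were lower on the 3 arrays at both ends. The 3′ probe set stood at 44.4, 48.0 and 41.9 on the 3 arrays, against 73.9 to 155 on the other 15. The 5′ probe set stood at 14.99, 13.2 and 16.8 against 20.8 to 43.5, and the middle one at 17.4, 8.83 and 2.29 against 16.1 to 42.1. Neither end overlapped with the other 15 arrays. The gene itself, Tfrc, the cell's transferrin receptor, was among the 674 with -1.41, -1.15 and -0.58 on its own probe set, and was named here after its values were seen.

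The 3′ actin control and the hybridisation spikes were lower on p53ER vehicle replicate 1 than on any other array. Its 3′ actin signal was 10787, against 24806 and 20830 on the other outlying arrays and 12903 to 24754 on the 15. The geometric mean of the hybridisation spikes, with the offset, was 1824 on that array. It was 3635 and 3369 on the other outlying arrays and 2446 to 4120 on the 15. The spikes are added just before hybridisation, but their values here are scaled by the trimmed mean of each array, which comes from the RNA of the cells. That mean was 123 before scaling on p53ER vehicle replicate 1, against 58.1 and 64.9 on the other outlying arrays. For the same spike signal before scaling, a higher trimmed mean gives lower scaled spikes. However, the trimmed mean reached 148 among the 15 other arrays, and none of those had a scaled spike mean below 2446. How much of the low spike value of p53ER vehicle replicate 1 comes from the scaling was not tested. The part of the spikes in the differences of that array was not tested, nor was saturation of bright probe sets there. The poly(A) spikes reached at most 28.5 on any array and were not used.

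**Figure D4:**
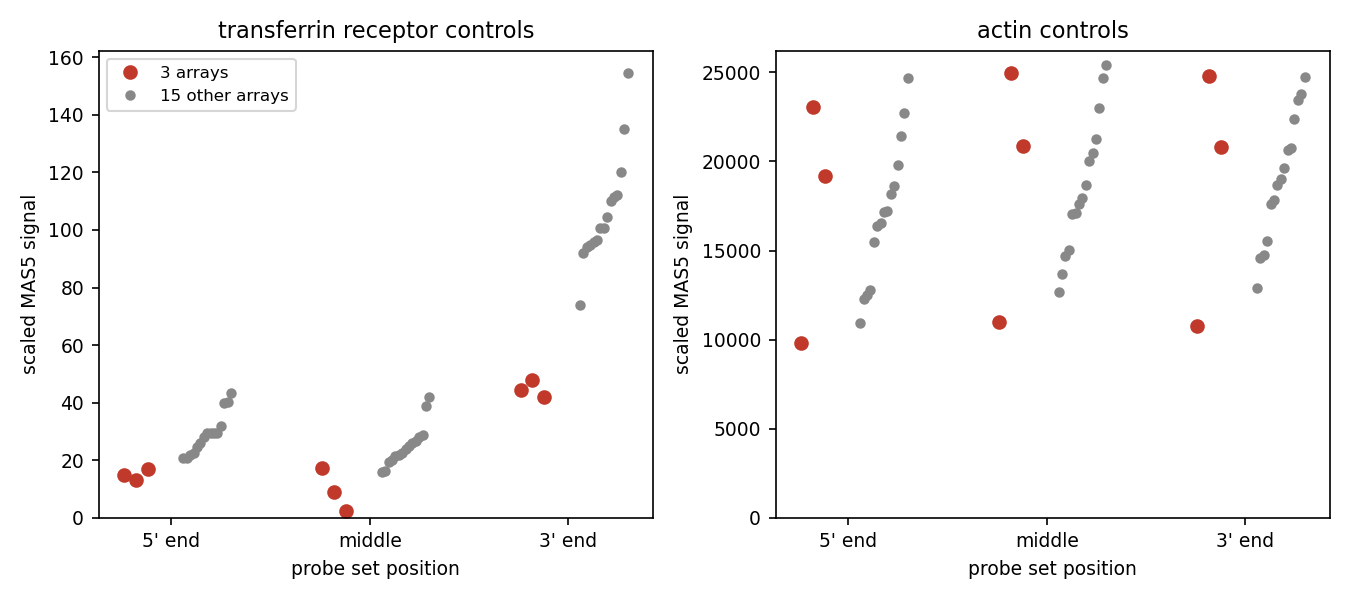
Scaled MAS5 signal (linear axes from 0) of the 5′, middle and 3′ control probe sets of the transferrin receptor (left) and actin (right), with the 3 outlying arrays in red at the left of each position and the other 15 in grey, sorted by signal. The 3′ transferrin receptor signal is 41.9 to 48.0 on the 3 arrays and 73.9 to 155 on the others. The actin signals of p53ER vehicle replicate 1 lie below all 15 others at each position, at 10787 against 12903 to 24754 at the 3′ end.

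The 3 arrays sit in 3 of the 6 groups, so they enter 7 of the 9 comparisons between groups, and the 2 others hold none of them. In p53ER cells with 4-OHT against p53ER cells with vehicle, the 674 genes had a median log2 change of +0.59 over all 18 arrays and -0.06 without the 3. Of 128 genes at least 2-fold higher with 4-OHT (1.17% of all compared), 56 were among the 674 (43.8%), against 2 of 137 (1.25% of all compared) without the 3 arrays. Taok1 differed by +1.94 (SE 1.41) with all arrays and by -0.11 (SE 0.25) without the 3, and Trpm7 by +1.36 (SE 1.07) and -0.03 (SE 0.24). Leaving out the 3 arrays lowered the median residual SD of the 674 genes to 0.26, against 0.72 with them, and that of all genes to 0.28, against 0.32.

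The same held where uninfected 0 h was the baseline. The median of the 674 in uninfected cells was +0.69 with 4-OHT against 0 h and +0.68 with vehicle against 0 h over 18 arrays, and +0.11 and +0.10 over 15. Of the genes at least 2-fold higher than at 0 h, 131 of 168 (1.54% of all compared) with 4-OHT and 120 of 159 (1.46%) with vehicle were among the 674. Without the 3 arrays these were 2 of 40 (0.366%) and 3 of 46 (0.421%).

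Between cell types with vehicle, p53ER against uninfected, the median was -0.62 over 18 arrays and 0.00 over 15. There 89 of 121 genes at least 2-fold lower (1.11% of all compared) were among the 674, against 1 of 75 (0.687%). At 0 h, p53ER against uninfected, it was +0.46 and +0.21. In p53ER cells vehicle against 0 h gave -0.42 and -0.11, and 4-OHT against 0 h gave +0.17 and -0.17. In each of these comparisons 1 or more of the arrays that chose the genes is in a group mean, so the values describe how the arrays enter the comparison and are no test. Groups left with 2 arrays also no longer hold the same replicate numbers.

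**Figure D5:**
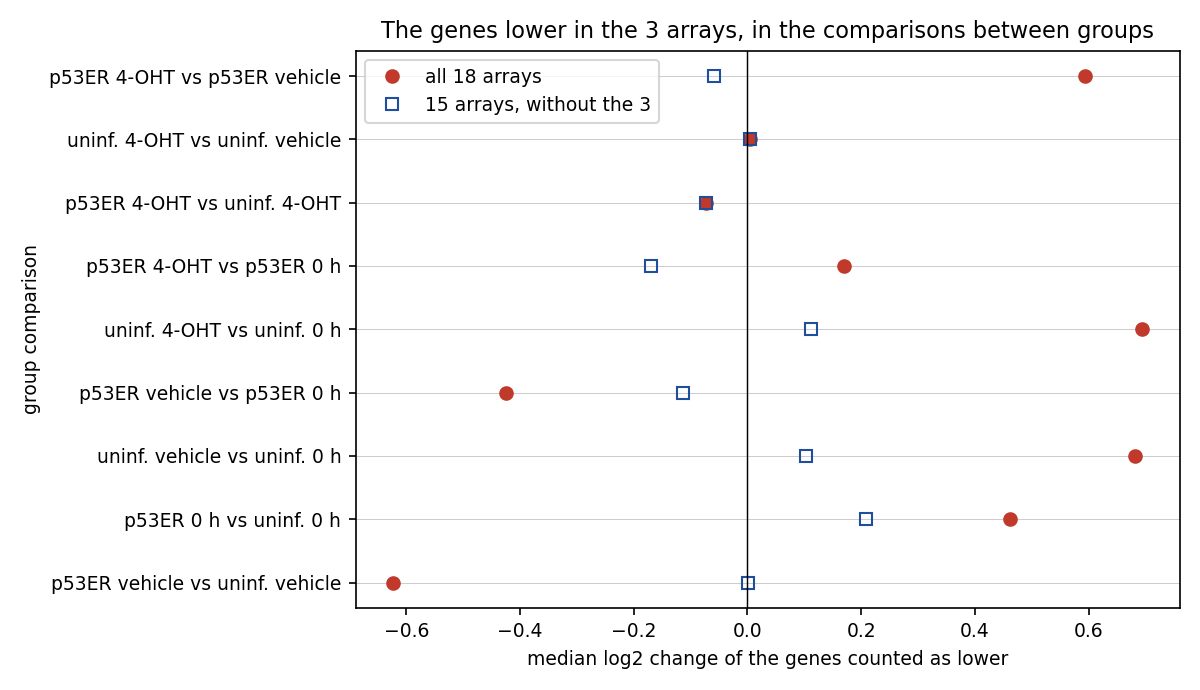
Median log2 change of the 674 genes counted as lower, in each of the 9 comparisons between groups, with all 18 arrays (filled circles) and with the 15 arrays left without the 3 (open squares). The circles run from -0.62 to +0.69 and the squares from -0.17 to +0.21.

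The comparisons that hold none of the 3 arrays measured the same genes in arrays that did not choose them. In uninfected cells with 4-OHT against vehicle, the 674 genes had a median log2 change of +0.01, with 346 positive. Limma called 0 genes of any kind there at an adjusted p under 0.05 (0.0% of those compared), and 84 had an unadjusted p under 0.05. The residual spread of that fit includes the 3 arrays, which widens it for the 674. Without the 3 arrays in the fit, 0 genes were called and 110 had an unadjusted p under 0.05, 3 of them among the 674. With 4-OHT, p53ER against uninfected cells, the median was -0.07, with 253 of the 674 positive. Limma called 8 genes of all 10917 (0.0733%), 1 of them among the 674. With the replicate number as a block it called 16 (0.147%), 1 of them among the 674.

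That 1 was Pmaip1, the p53 target that encodes the pro-apoptotic protein Noxa. It was higher in p53ER cells by +3.63 on the log2 scale (SE 0.52, limma adjusted p = 0.00994), and by the same +3.63 when the 3 arrays were left out of the fit (SE 0.39, limma adjusted p = 0.00149). It missed the threshold without uninfected 4-OHT replicate 2 or without p53ER 4-OHT replicate 3. On the 3 arrays, none of which had 4-OHT, Pmaip1 stood at 7.19, 1.71 and 10.6, against 21.6 and 31.2, 15.1 and 7.75, and 26.7 and 23.3 on their mates. These are low signals, and the other 15 arrays reached 414.

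Without the 3 arrays in the fit, 12 genes were called in p53ER against uninfected cells with 4-OHT (0.11% of those compared), and all 8 called with them were among the 12. At an unadjusted p under 0.05 there were 604, of which 40 were among the 674, against 419 and 2 with the 3 arrays in the fit. The log2 changes are the same in both fits, since neither group holds one of the arrays, and the residual spread is what differs. Trp53inp1 (+3.28, limma adjusted p = 0.155 with the 3 arrays and 0.0099 without), Ccng1 (+2.45, 0.278 and 0.0099), Psrc1 (+2.09, 0.348 and 0.00295) and Ckap2 (+1.42, 0.0961 and 0.0398) were the ones added.

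The p53 targets as a list had 2 of 28 genes lower on the 3 arrays (7.14%), Pmaip1 and the death receptor gene Fas (-1.20 ± 1.08, SD, n = 3), with a median of -0.07. On p53ER vehicle replicate 1, which belongs to the vehicle group of the main comparison, the list had a median of -0.43. Trp53inp1 was at -2.96, Ccng1 at -2.48, Cdkn1a at -1.29 and Mdm2 at -1.25 on that array, while on p53ER 0 h replicate 3 they were at +0.26, +0.39, +1.31 and +0.38. These values are without the replicate block. On the 3 arrays the list had medians of -0.43, -0.21 and +0.30 without the block and of -0.39, +0.10 and -0.07 with it. In p53ER cells with 4-OHT against vehicle, Mdm2, the ubiquitin ligase that limits p53, was higher by +2.92 with all 18 arrays (limma adjusted p = 0.0329) and by +2.504 without the 3 (adjusted p = 0.126). Pmaip1 was higher by +3.38 (limma adjusted p = 0.0353) and by +2.91 (adjusted p = 0.0438).

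Of the genes called in p53ER cells with 4-OHT against vehicle, 2 with 18 arrays (0.0183% of those compared) and 3 with 15 (0.0275%), Pmaip1 was shared. With the replicate block and all arrays limma called 8 (0.0733%). Phlda3, a p53-induced inhibitor of Akt, passed without the 3 arrays (+1.32, limma adjusted p = 0.0438) and not with them (+1.43, adjusted p = 0.0682). The transporter gene Slc36a3 did likewise (+2.16, adjusted p = 0.00886, against +1.70, adjusted p = 0.0999). Without the 3 arrays Slc36a3 was also lower in p53ER cells with vehicle than at 0 h (-2.07, limma adjusted p = 0.0414), both groups then holding 2 arrays. Against p53ER cells at 0 h, 2 genes were called with 18 arrays (0.0183%) and 6 with 15 (0.055%), both of the 2 among the 6, and the replicate block with all arrays gave 19 (0.174%). Of the 4 added, Cdkn1a (+3.07, limma adjusted p = 0.0319) and Phlda3 (+1.59, adjusted p = 0.0111) are p53 targets, and Has2, a hyaluronan synthase (+1.26, adjusted p = 0.0319), is among the 674. The remaining added gene was Mtif3 (+2.14, limma adjusted p = 0.0319, against +1.42 and 0.871 with all 18 arrays).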

How the data were processed

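The authors deposited MAS5 signal intensities on a linear scale for 45101 probe sets on 18 arrays, per the submitters' processing notes, which give no version; neither background correction nor scaling is stated further. The 2% trimmed mean ran from 47.5 to 148 between arrays (3.12-fold), and a common value of 82.7 was set by scaling, and log2(signal + 4.13) was used, the offset being 5% of that mean. Intensities have no count depth, so the number of arrays limits the precision.

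The probe annotation lists 35890 probe sets, 34958 with 1 gene, 932 with several and 9211 unnamed here; 34754 were matched by Entrez ID to the RefSeq gene table for names only. Each of 18195 genes was read by its brightest probe set, and the upper 60% (10917) were compared. No sequences are printed, and positions were not used here. Some genes are not analysed here.

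Each of the 3 arrays was set against its 2 group mates, which equals a limma fit of 6 group means plus a term for the 3 arrays. Group comparisons used limma lmFit and eBayes with a trended, robust prior over 6 groups, two-sided, with Benjamini-Hochberg adjustment over 10917 genes and a threshold of 0.05. Exact permutation p-values of the control measures are not given, since the arrays were chosen from signals of the same RNA. The fits were tested on simulated data. The 3 arrays, the comparisons and the 19 gene lists were chosen with earlier results of these data known.

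Named genes were Malat1, Taok1, Trpm7, Smc2 and Usp9x with all probe sets, the 20 largest differences each way, up to 4 genes per list that counted as lower, or 2 with the largest size where none did, and the 2 nearest each side of the limit. Other genes were named after their values were seen.

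Arrays that share a replicate number deviated together from their group means, with r above 0.1 in every pair in 4 comparisons (p53ER 4-OHT against vehicle, against 0 h and against uninfected 4-OHT, and uninfected 4-OHT against vehicle, lowest r = 0.17); in the other 5 a pair fell short, the lowest r being -0.21. What a number marks is not given in the labels.

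Alternatives were other offsets (0 or 20%), quantile normalization, all genes or the upper 40%, all probe sets, a replicate block, no adjustment for groups, limits of 1.5-fold and 4-fold, signals as deposited, and leaving out arrays. R 4.3.3, limma 3.58.1, statmod 1.5.0, Python 3.11.15, numpy 2.4.6, scipy 1.17.1, pandas 2.3.3 and matplotlib 3.10.9 were used.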

Additional observations from a re-analysis of the deposited data

How the results depend on the processing

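The number of lower genes was 674 and stayed between 476 and 769 under quantile normalization, both other offsets, both other filters, the replicate block and no adjustment for groups, and between 654 and 851 when any 1 of the 9 arrays was left out. The highest, 851, was without p53ER 0 h replicate 3. With no filter the 769 were of all 18195 genes, and with the stricter filter the 476 were of the upper 40%. Over all probe sets, 1508 of the 20975 probe sets compared were lower. The number of genes was 1086 with a 1.5-fold limit and 115 with a 4-fold limit. Counts under other filters or over all probe sets, also those of higher genes below, thus have unlike totals. The replicate block gave 684, of which 648 were among the 674. Without group adjustment 508 were lower, 490 of them shared. The number of higher genes moved with nearly every choice: 24 with quantile normalization, 15 with no offset, 1 with the larger offset, 89 with no filter, 0 with the stricter filter, 28 over all probe sets, 98 with the 1.5-fold limit, 0 with the 4-fold limit, 0 without group adjustment and 10 to 53 with 1 array left out.

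The share of genes lower in 2 of the arrays that were lower in the third was, for p53ER vehicle replicate 1, 76.2% with quantile normalization and 76.3% over all probe sets. For uninfected 0 h replicate 2 it was 77.3% over all probe sets and 42.9% with the 4-fold limit, and for p53ER 0 h replicate 3 it was 33.7% with the larger offset, 59.5% with the 1.5-fold limit and 3.39% with the 4-fold limit. The causes were not tested.

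Among control measures, which are descriptions, the sign turned for the transferrin receptor 3′ to middle ratio with signals as deposited (-0.0082) and for the pyruvate carboxylase ratio as deviations from group mates (-0.049). With 1 of the 3 arrays left out, the log2 differences ran from -0.36 to +0.18 for the trimmed mean, -0.071 to +0.068 for Gapdh 3′ to 5′, -0.096 to +0.064 for Gapdh 3′ to middle, -0.35 to +0.49 for the transferrin receptor 3′ to middle, -0.026 to +0.29 for pyruvate carboxylase, -0.37 to +0.13 for the spikes, -0.011 to +0.21 for B1 and -0.22 to +0.14 for B2. The transferrin receptor 3′ to 5′ difference stayed negative, at -0.50 to -0.28.

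With the replicate block, limma called 8 genes in p53ER 4-OHT against vehicle, 16 in p53ER against uninfected cells with 4-OHT, 19 in p53ER 4-OHT against 0 h and 0 in p53ER against uninfected cells with vehicle (1 without the block). With the block and without the 3 arrays, these were 9, 32, 26 and 3, with 1 in uninfected 4-OHT against 0 h and 1 in p53ER against uninfected cells at 0 h. Of the 674 genes, 1 was called in each of the first 3 comparisons with the block, Pmaip1 (limma adjusted p = 0.0249, 0.0079 and 0.0188). Without the 3 arrays and without the block, 6 genes were called in p53ER 4-OHT against 0 h, 1 in p53ER vehicle against 0 h, 1 in p53ER against uninfected cells at 0 h and 0 there with vehicle, where 344 had an unadjusted p under 0.05. The median of the 674 turned to -0.059 in p53ER 4-OHT against vehicle and to 0.000297 in p53ER against uninfected cells with vehicle. Leaving out 1 array gave 0 to 1 calls in uninfected 4-OHT against vehicle, the 1 without vehicle replicate 3. It gave 1 to 9 in p53ER against uninfected cells with 4-OHT, with 1 without p53ER 4-OHT replicate 3 and 3 without uninfected 4-OHT replicate 2 or 3.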
